A study of Rattus norvegicus with 13 samples.

Results

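This account concerns the contrast between oval cells and control liver of the rat, on 8 of the 13 arrays of the study, with 6 arrays of oval cells and 2 of control, and the 5 arrays of preneoplastic foci entered only the estimate of the spread. The arrays were chosen by their labels, and probes were kept when the median deposited intensity exceeded 300 in oval cells or in control, which left 6764 of 22523 probes and 5242 named genes. Male Fischer rats had been given a single dose of diethylnitrosamine (DENA) and were later put through the resistant-hepatocyte (R-H) protocol, a diet with 2-acetylaminofluorene (2-AAF) joined with a partial hepatectomy. Oval cells were cut out by laser microdissection 1 week after surgery, after identification by morphology and by immunostaining, CK-19 and GSTP among the stains, so Krt19 and Gstp1 being high is no result in itself. RNA was pooled from fewer animals than there are oval cell arrays, so some of those arrays share an animal and every p-value given here is too small. For the same reason every standard error is too small and every interval too narrow. The control arrays are labelled as hepatocytes of liver, and the sources differ on whether these were random areas of normal liver or random areas from rats on the R-H protocol. Cell type and treatment therefore cannot be told apart in any difference given here. Age is not given in the sources used here.

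Oval cells are small epithelial cells with scant cytoplasm that arise around the terminal bile ductules and canals of Hering when hepatocytes are damaged and cannot divide. They carry markers of bile duct epithelium and are studied as progenitor cells of the liver. Hepatocytes, which make up most of the mass of normal liver, release plasma proteins, store and make fuel, and take up, oxidise and excrete drugs, steroids and bile acids. Bile duct epithelium instead moves ions, bicarbonate and water across a polarised cell layer.

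Log2 signals of the oval cell arrays correlated at 0.970 to 0.994 with each other across the tested probes, the control pair at 0.990, and oval cell arrays with control arrays at 0.744 to 0.830. Each array had 26.8% of its probes over 300 and a median of 182.9 to 183.3. The deposited values thus share nearly 1 distribution, so this equal share is no property of the samples. In limma 1771 probes passed an adjusted p under 0.05 with at least a 2-fold difference (26.2%), called here, with 933 higher and 838 lower in oval cells (52.7% higher), and by adjusted p alone 4876 did (72.1%). Of the called probes 173 of the higher and 165 of the lower are unnamed here. Centring on ribosomal protein genes shifted each quantile-normalized array by 1 value. It lowered the median difference of all tested probes to -0.89 on the log2 scale, against 0.01. That gave 323 higher and 3014 lower probes (9.68% higher). With that centring 30 of the 182 genes named below lost their call, all of them rises. Counts and differences below are thus relative to the bulk of the probes. By gene, 754 of 5242 were called higher (14.4%) and 657 lower (12.5%), or 26.9% in all, and for 74.3% of genes the oval cell and control arrays did not overlap. At least 4-fold differences were called for 233 higher and 191 lower genes, and at least 16-fold for 14 higher and 23 lower genes. For 341 of the higher genes both control arrays lay under 300, and for 127 of the lower genes all 6 oval cell arrays did. There the fold is given as a lower bound, the mean of the brighter group over 300. A gene dim in 1 group entered only through the other, so counts and medians over tested members of a list are given as descriptions. Adjusted p-values of genes dim in 1 group are descriptions too, since the filter used the same groups. The highest intensity was 43185.5 on every array, as the shared distribution sets it, and a fold that involves a signal close to it is uncertain in size.

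**Figure D1:**
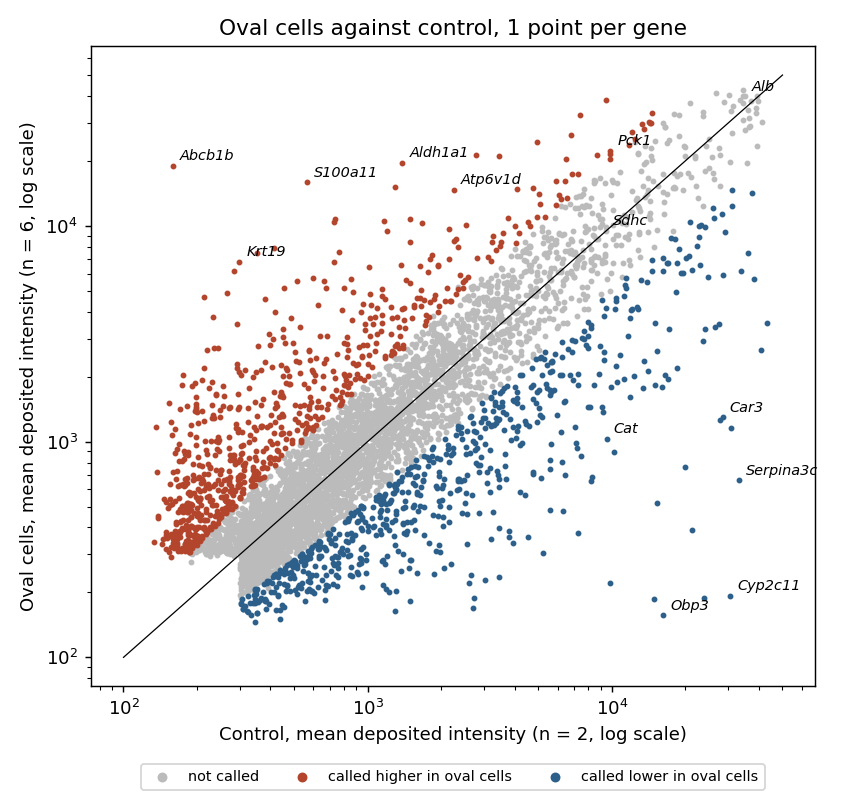
Mean deposited intensity of each of 5242 genes in oval cells (vertical axis, 6 arrays, log scale) against control (horizontal axis, 2 arrays, log scale), with 1 point per gene. Red points are genes called higher in oval cells (754), blue points genes called lower (657), and the line marks equal means. Abcb1b lies far above the line and Cyp2c11 far below it, while Alb, near the top of the intensity scale in both groups, lies close to it.

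The markers of the labelled cell type were read first. Of 11 tested biliary and oval cell markers, 7 exceeded the limit of 300 by their median in oval cells alone and so had to differ, the stain Krt19 among them. In all 10 of the 11 were called higher and 0 lower (14.4% of all genes were called higher), which is given as a description. The epithelial adhesion molecule Epcam gave intensities of 4465, 5459 and 6707 (lowest, median and highest of the 6 oval cell arrays), against 515 and 509.5 in control, a 12.4-fold difference (adjusted p = 2.3e-09). Cd24, a surface glycoprotein, reached 5608, 7169 and 9688 in oval cells against 352 and 353 in control, and Krt19, the gene of CK-19, 5363, 7061 and 8286 against 248 and 347. Every oval cell array lay above both control arrays for each of these genes. Spp1, which encodes osteopontin, was at least 6.23-fold higher, and Prom1, a glycoprotein of membrane protrusions, at least 6.09-fold. Smaller rises were those of the mucin Muc1 (at least 2.11-fold), the annexin Anxa4 (4.07-fold), the tight junction protein Cldn4 (at least 1.26-fold), the secretin receptor Sctr (at least 2.16-fold) and the keratin Krt7 (at least 1.12-fold, with a log2 difference of 1.28 that was 0.90 without background correction). Cdh1, or E-cadherin, differed by 0.52 ± 0.14 (SE, log2) and was not called.

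Markers of other cell types were read beside these, with 14.4% of all genes called higher and 12.5% lower. Of 13 tested hepatocyte markers 1 was called higher (7.69%) and 2 lower (15.4%). These counts were 0 and 3 with cyclic loess and 0 and 7 with centring on ribosomal protein genes. The summed intensity of the 13, in which the brightest genes weigh most, was 276482 to 312172 in oval cells and 299045 to 313364 in control. Alb, the gene of albumin, gave 39066, 40082 and 40575 in oval cells against 37814 and 32377 in control, and these groups differed by 0.19 ± 0.10 (SE, log2, adjusted p = 0.0979). These signals lay near the top of the scale, so this small difference is no measure of equal levels. The gluconeogenic enzyme Pck1 was 2.28-fold higher in oval cells, though its log2 difference of 1.19 was 0.80 with cyclic loess. G6pc1, the catalytic subunit of glucose-6-phosphatase, was 4.84-fold lower, and Rbp4, the plasma carrier of retinol, 2.99-fold lower. Of 7 tested stellate cell markers 6 were called higher, and 2 of the 7 exceeded 300 by their median in oval cells alone. With centring on ribosomal protein genes 4 of the 7 were called higher and 1 lower. The summed intensity of the 7 was 35352 to 46238 in oval cells and 7616 to 8662 in control. Of 10 collagen genes (Col symbols) 8 were called higher and none lower. Endothelial markers were called higher in 3 of 4 cases, with sums of 4949 to 6452 in oval cells and 2360.2 to 2775 in control. That count was 2 with centring on ribosomal protein genes. Macrophage markers were called higher in 3 of 12 cases (1 with cyclic loess, 0 with centring on ribosomal protein genes) and lower in 1 (0 without control replicate 1), with sums of 26247 to 37315 in oval cells and 17846 to 20823 in control, and all 3 tested erythroid genes were called lower. Of 3 tested lymphocyte markers 1 was called higher. Of 8 neutrophil markers on the arrays only S100a8 was tested, and it and both tested mesothelial markers, Krt19 and Msln, exceeded the limit in oval cells alone, so that their higher signal is only a description. The part of these cells in the differences below was not tested, and in such bulk signal fewer cells of a type and less RNA per cell cannot be told apart.

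The 25 largest rises with groups that did not overlap included genes of drug export, calcium binding, matrix and cell surface. Abcb1b, a P-glycoprotein that pumps drugs out of cells, gave 15321, 19469 and 22575 in oval cells (lowest, median and highest) against 153 and 165 in control, at least 63.3-fold higher (adjusted p = 7.34e-14). Both control arrays were at the dim end of the scale and all 6 oval cell arrays were bright. Of the calcium-binding S100 genes, S100a11 gave 13128, 16105 and 18582 in oval cells against 529 and 596 in control (32.1-fold), and S100a6 2008, 2719 and 3313 against 186 and 253 (at least 8.91-fold). The sugar-binding galectins Lgals2 and Lgals1 were at least 15.6-fold and at least 12.6-fold higher. Tspan8, a tetraspanin of epithelial cell surfaces, reached 3757, 4571 and 6886 in oval cells against 231 and 301 in control, and of 16 tested tetraspanins 5 were called higher and 1 lower. For Tspan8, Krt19, Lox, Ccl19 and Fgfr3 1 of the 2 control arrays lay under 300, so the sizes of these fitted differences are uncertain.

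Matrix and secreted factors formed a further set. Lox, which cross-links collagen and elastin, gave 4639, 6121 and 8307 in oval cells against 222 and 346 in control (log2 difference 4.87 ± 0.30, SE, adjusted p = 4.31e-09). Mgp, an inhibitor of calcification, reached 7742, 10070.2 and 13796 against 769 and 680.4, and Ccn2, a matricellular growth factor also known as CTGF, 8673, 10454 and 13278 against 793 and 671, 16-fold higher. No oval cell array of these genes came near the control arrays. Fst, which binds and blocks activin, was at least 5.04-fold higher, the chemokine Ccl19 14.6-fold, the membrane protein Msln of mesothelium at least 9.09-fold, and Pmepa1, a gene induced by TGF-beta that dampens its signal, 14.4-fold. Among enzymes, Aldh1a1, which makes retinoic acid, gave 18896, 19440.3 and 21062 in oval cells against 1504 and 1272 in control (14.9-fold). The glutathione peroxidase Gpx2 was at least 9.05-fold higher, the histamine-degrading oxidase Aoc1 at least 6.02-fold, and the glutathione transferase Gstp1, 1 of the stains, 22.7-fold. The transcription factor Mybl1 (at least 7.31-fold), Rap1gap (at least 3.88-fold), which switches off the small GTPase Rap1, and the filamin-binding protein Fblim1 (at least 6.46-fold) completed the list with Tagln, described with the cytoskeleton.

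The promoter of Ccn2, a gene known as a target of the TEAD factors and their partner YAP, is shown because its rise was large and its start region holds several copies of the TEAD motif GGAATG. The 300 bases run from 250 before to 50 after the RefSeq start on the minus strand of chromosome 1 (chr1:22624565-22624864, GRCr8), with GGAATG in capitals. The copies begin at -166, -101 and -92 from the start site.
Ccn2: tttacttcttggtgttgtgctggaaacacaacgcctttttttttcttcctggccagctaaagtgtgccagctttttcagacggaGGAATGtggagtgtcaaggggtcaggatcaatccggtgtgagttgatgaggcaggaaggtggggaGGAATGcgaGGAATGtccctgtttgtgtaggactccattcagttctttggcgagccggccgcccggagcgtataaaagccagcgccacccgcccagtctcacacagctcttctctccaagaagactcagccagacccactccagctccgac
GGAATG, searched on both strands, was present in 11.7% of the 4419 promoters of tested genes, in 14.8% of those of genes called higher and in 12.9% of those of genes called lower. Among the 25 largest rises 17 had a promoter entry and 4 of these held it, and among the 25 largest falls 7 of 20.

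**Figure D2:**
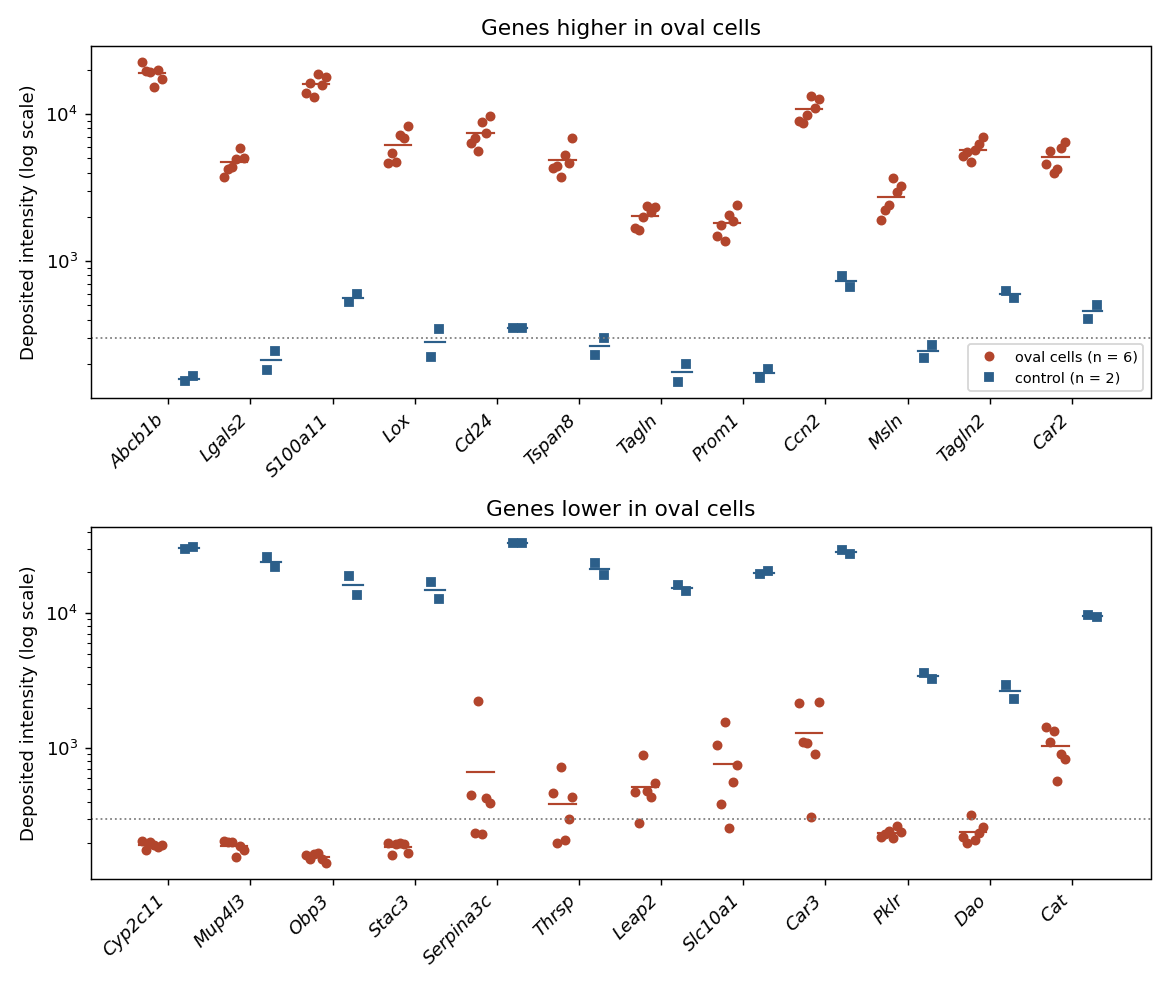
Deposited intensity (log scale) on each array for 12 genes higher and 12 genes lower in oval cells. Within each gene the 6 oval cell arrays (red circles, replicates 1 to 6 from left to right) stand left of the 2 control arrays (blue squares), short lines are group means and the dotted line is 300. The groups do not overlap for any gene shown, and oval cell arrays of Serpina3c, Slc10a1 and Car3 spread widely while those of Cyp2c11 and Obp3 lie together.

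The 25 largest falls were led by genes of male rat liver. Cyp2c11, a steroid- and drug-oxidising cytochrome P450 of male liver, gave 177, 193 and 207 in oval cells (lowest, median and highest) against 29992 and 30950.2 in control, at least 102-fold lower (adjusted p = 1.08e-14). The lipocalin Obp3, of the family of urinary pheromone carriers, gave 141, 158 and 167 against 18896 and 13585, and Mup4l3 of the same family 156, 197 and 205 against 25856 and 21945. All 6 oval cell arrays of these genes were under 300 while both control arrays were bright. A further member, Mup4, gave 1058, 2749 and 4146 in oval cells against 39699.7 and 41982 in control (17.2-fold lower), and so kept a signal above 300 on every oval cell array. Its control arrays lay near the top of the scale, which leaves the size of that fold uncertain. Probes of the Cyp and Mup families may read near-identical copies, so which copy was measured is uncertain. Stac3, known from muscle as a partner of the calcium channel of excitation-contraction coupling, gave 162, 194 and 198 in oval cells against 17105 and 12767 in control (at least 49.8-fold lower). Sez6, known from neurons, was at least 9.11-fold lower. These genes also fell to the dim end of the scale on all 6 oval cell arrays.

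Fuel and lipid genes came next. Thrsp, a regulator of fat synthesis, was 78.1-fold lower, the desaturases Scd and Fads1 35.2-fold and 16.2-fold, the glycogen-targeting subunit Ppp1r3b 22.4-fold, and Pfkfb1, which sets the level of fructose 2,6-bisphosphate, 16.4-fold. Pklr, the liver pyruvate kinase, gave 218, 236 and 267 in oval cells against 3608 and 3264 in control (at least 11.5-fold, adjusted p = 5.79e-11). Secreted proteins among the falls were the apolipoproteins Apoa2 (32.8-fold) and Apof (26.2-fold), the serpins Serpina3c (89.2-fold) and Serpina4 (14.8-fold) and the peptide Leap2 (36.8-fold). Slc10a1, the sodium-dependent uptake transporter of bile acids, gave 256, 660.0 and 1569 in oval cells against 19361 and 20335 in control (35.6-fold). Its control arrays were close together and its oval cell arrays lay on both sides of 300. The drug-oxidising Fmo1 (at least 8.65-fold), Aox3 (at least 8.97-fold) and Cyp2b15 (at least 10-fold), the carboxylesterase Ces1d (16.6-fold), Dhrs7l1 (at least 32.6-fold) and Dao, or D-amino acid oxidase (15.4-fold), were lower as well. Of the falls named with values 21 had some but not all of the 6 oval cell arrays under 300, so the sizes of their fitted folds are uncertain. This held for 5 arrays in Dao, Cebpa and Slc2a5, and for 4 in Pfkfb1, Ppp1r3b, Egfr, Ghr, Hsd17b2, Npc1 and Slc6a13.

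Promoters of 3 of these genes are shown because their TATA boxes stand at nearly the same distance from the start. TATAAA is in capitals and begins at -31 in Cyp2c11 (chr1:246174966-246175265, plus strand), at -33 in Obp3 (chr5:79640626-79640925, minus strand) and at -29 in Pklr (chr2:176841014-176841313, plus strand), all of 300 bases from RefSeq, GRCr8.
Cyp2c11: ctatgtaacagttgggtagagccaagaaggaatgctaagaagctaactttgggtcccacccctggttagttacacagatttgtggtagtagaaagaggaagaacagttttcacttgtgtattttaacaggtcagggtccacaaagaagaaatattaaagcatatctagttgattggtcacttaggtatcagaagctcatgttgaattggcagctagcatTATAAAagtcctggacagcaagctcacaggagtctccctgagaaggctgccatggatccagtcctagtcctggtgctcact
Obp3: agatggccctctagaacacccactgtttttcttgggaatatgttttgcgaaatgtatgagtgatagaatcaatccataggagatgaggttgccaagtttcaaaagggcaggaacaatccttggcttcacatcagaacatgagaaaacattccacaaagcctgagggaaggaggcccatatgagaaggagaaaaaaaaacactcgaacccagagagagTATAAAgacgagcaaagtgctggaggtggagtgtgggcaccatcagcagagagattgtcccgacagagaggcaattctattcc
Pklr: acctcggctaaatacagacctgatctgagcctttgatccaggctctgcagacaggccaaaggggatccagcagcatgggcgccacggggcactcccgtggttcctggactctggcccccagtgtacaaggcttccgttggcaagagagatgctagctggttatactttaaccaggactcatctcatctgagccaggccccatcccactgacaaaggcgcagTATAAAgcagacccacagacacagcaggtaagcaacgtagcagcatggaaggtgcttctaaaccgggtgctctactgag
TATAAA, searched on both strands, was in 6 of 20 promoters of the largest falls (30%), 3 of 17 of the largest rises (17.6%) and 8.15% of the 4419 promoters of tested genes. Over all genes called lower it was in 13% and over all called higher in 9.95%. The GC box GGGCGG was in 3 of 20 promoters of the largest falls, 10 of 17 of the largest rises and 61.5% of the promoters of tested genes. Over all genes called lower the GC box was in 52.2% and over all called higher in 64%.

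Gene lists by function are given by their counts beside the 14.4% of all genes called higher and 12.5% called lower. Many are also given by their median log2 difference, beside 0.02 over all genes. With centring on ribosomal protein genes, counts of higher members were smaller and counts of lower members larger in most lists. Some members exceeded 300 by their median in 1 group alone, so list counts may in part restate that filter. In oval cells alone and control alone this held for 8 and 1 of 33 actin-binding and 4 and 0 of 14 integrin genes. It held for 5 and 0 of 22 protease, 0 and 5 of 18 peroxisome and 1 and 3 of 14 retinoid and vitamin genes. Among transcription factors it held for 6 and 3 of 20, and among Notch and Hedgehog genes for 4 and 1 of 9. The same was true of 5 and 2 of 20 glycan, 5 and 5 of 19 transporter and 2 and 5 of 16 growth factor genes.

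**Figure D3:**
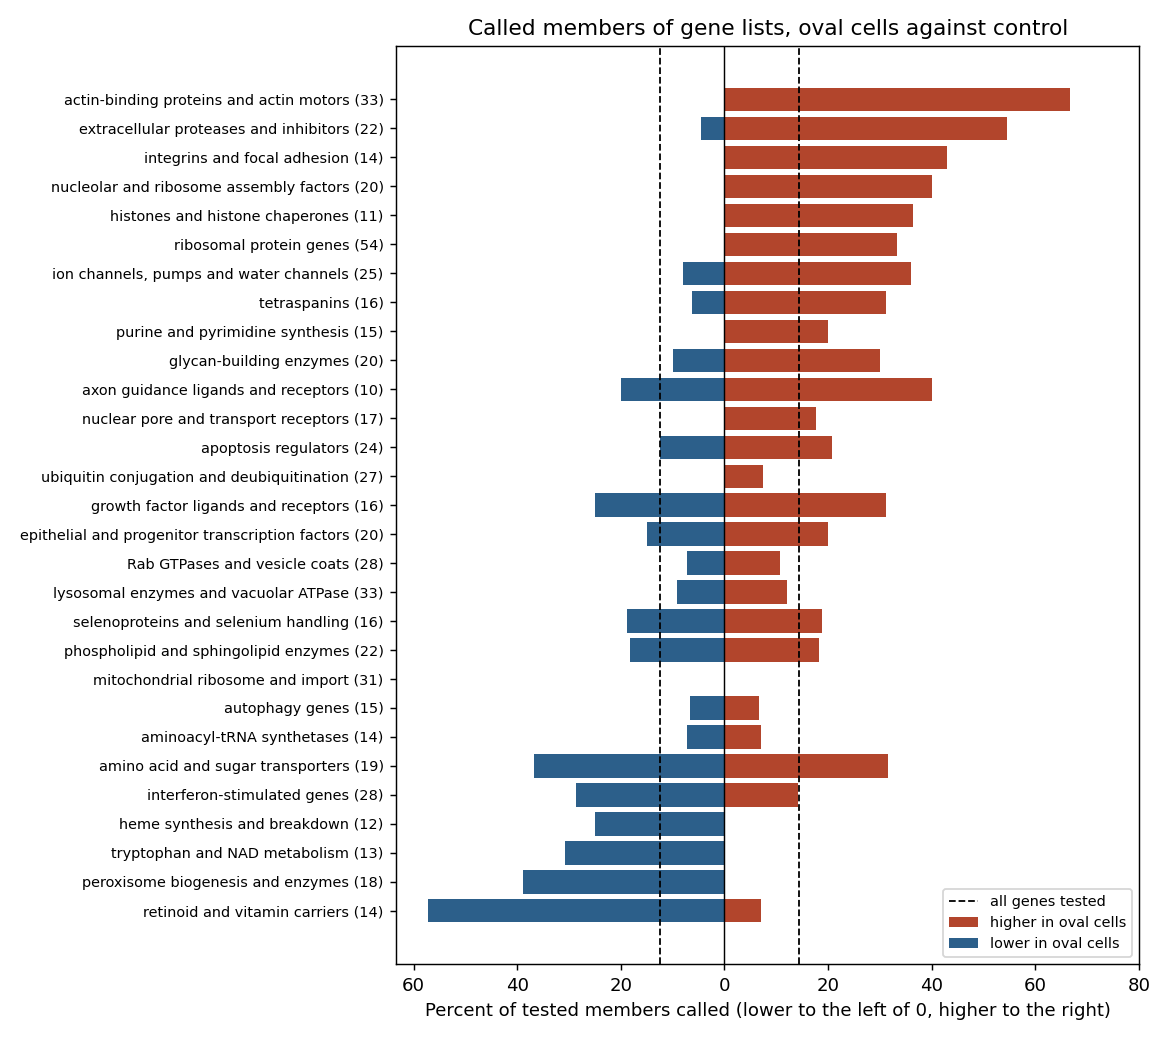
Percent of the tested members of each gene list (number in brackets) called higher in oval cells (red, right of 0) or lower (blue, left of 0), with all 5242 tested genes as dashed lines (14.4% and 12.5%). Actin-binding proteins stand at the top with 22 of 33 called higher and retinoid and vitamin carriers at the bottom with 8 of 14 called lower.

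Actin-binding proteins were called higher in 22 of 33 cases and lower in 0, with a median of 1.13 (with ribosomal protein genes as the centre 9 higher and 2 lower). Tagln, a calponin-like actin binder abundant in smooth muscle, gave 1627, 2074 and 2375 in oval cells against 150.1 and 200.4 in control (at least 6.76-fold higher, adjusted p = 8.39e-09), and its relative Tagln2 4743, 5593 and 6940.4 against 630.2 and 559 (10.7-fold, adjusted p = 1.71e-10). Flna, the filamin that cross-links actin into networks, gave 4570.4, 5423 and 6584 against 608 and 722 (9.13-fold), and the tropomyosin Tpm4 4065, 4246 and 4488 against 694 and 563 (7.59-fold). No oval cell array of these genes overlapped control. Genes of epithelial brush border and cortex were higher too, with the microvillus bundler Vil1 at least 2.08-fold, the membrane linker Ezr at least 2.6-fold and the filament-severing Gsn at least 2.61-fold. Coro1a, a coronin of blood cells, was 7.08-fold higher. Against this direction, Rdx, a relative of Ezr that marks the canalicular membrane of hepatocytes, gave 2523, 2705 and 2765 in oval cells against 5089 and 4969 in control (log2 difference -0.93 ± 0.08, SE) and the focal adhesion protein Zyx differed by -0.94 ± 0.12 (SE, log2). Both lay under the 2-fold limit. Rdx passed it with cyclic loess (-1.12), Zyx with an offset of 16 (-1.07) and without control replicate 1 (-1.06), and both with centring on ribosomal protein genes.

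Of the actin genes called higher 19 had a promoter entry, and 18 of these held the GC box GGGCGG (94.7%, against 61.5% of the promoters of tested genes), and none held TATAAA. The promoter of Tagln2 (chr13:87499158-87499457, plus strand, GRCr8, RefSeq) is shown as a contrast to those with a TATA box. Both GC boxes are in capitals, read here on the other strand as CCGCCC, and begin at -90 and -79.
Tagln2: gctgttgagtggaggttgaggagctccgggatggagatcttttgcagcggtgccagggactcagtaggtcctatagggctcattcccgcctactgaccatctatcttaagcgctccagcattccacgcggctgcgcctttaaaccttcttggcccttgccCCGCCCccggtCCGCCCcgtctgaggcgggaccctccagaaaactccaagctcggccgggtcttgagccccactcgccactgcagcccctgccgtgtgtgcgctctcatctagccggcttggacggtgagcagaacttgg

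Integrin and focal adhesion genes were called higher in 6 of 14 cases and lower in 0 (median 0.75). The hyaluronan receptor Cd44 gave 704, 788 and 1022 in oval cells against 166 and 179 in control (at least 2.7-fold), and the common beta chain Itgb1 4769, 5454 and 6126 against 1572 and 1419.9 (3.75-fold). The integrin-binding tetraspanin Cd151 (3.57-fold) and the epithelial beta chains Itgb6 (at least 1.56-fold) and Itgb4 (at least 1.31-fold) were also called, and the log2 difference of Itgb4 without background correction was 0.99, short of 2-fold. Among 28 Rab GTPases and vesicle coat genes 3 were called higher and 2 lower, with a median of 0.05, and those of epithelial traffic, Rab25 (at least 1.95-fold) and Rab13 (3.8-fold), led the rises.

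Extracellular proteases and their inhibitors were called higher in 12 of 22 cases and lower in 1, or 2 with cyclic loess (median 1.08). The largest rises were those of inhibitors, the elastase inhibitor Serpinb1a with 1233, 1483 and 1759.7 in oval cells against 159 and 239 in control (at least 4.99-fold) and the metalloprotease inhibitor Timp1 with 3021, 3792 and 4301 against 484 and 487 (8.79-fold). The plasminogen activator Plat was 7.22-fold higher, and Serpine2, which inhibits it, 4.61-fold. The epithelial protease St14, or matriptase, gave 509.7, 632 and 685 in oval cells against 208 and 197 in control (at least 2.02-fold), and its inhibitor Spint1 447, 517 and 628 against 164 and 135 (at least 1.74-fold). Protease and inhibitor were thus higher on every oval cell array for both pairs. The elastase Mmp12 of macrophages was at least 1.69-fold higher. The fall was that of Tmprss6, a protease of hepatocytes that restrains hepcidin, with 321, 344 and 416 in oval cells against 812 and 914 in control (2.78-fold).

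Genes of ion and water transport were called higher in 9 of 25 cases and lower in 2 (median 0.51). By their medians 9 of the 25 exceeded 300 in oval cells alone and 2 in control alone, so these counts may in part restate the filter. The water channel Aqp5, known from secretory glands, gave 873, 1049 and 1705 in oval cells against 197 and 206 in control (at least 4.05-fold, adjusted p = 2.53e-08), and Aqp1, a water channel of cholangiocytes and endothelium, 488, 595 and 964 against 249 and 265 (at least 2.22-fold). Aqp11, an intracellular water channel, was lower with 392, 599 and 828 against 1968 and 1826 (3.48-fold). Neither direction had an oval cell array within the range of control. Of the FXYD regulators of the sodium pump, Fxyd3 was at least 4.72-fold higher and Fxyd1 at least 3.01-fold lower, and the pump's beta subunit Atp1b1 was 5.01-fold higher. The potassium leak channel Kcnk1 was at least 3.23-fold higher.

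Carbonic anhydrases, which interconvert carbon dioxide and bicarbonate, were called in all 4 tested cases, 2 higher (1 with cyclic loess) and 2 lower. The cytosolic Car2, the isoform of ducts and secreting epithelia, gave 3980.3, 5113 and 6445 in oval cells against 405 and 506 in control (13.1-fold higher, adjusted p = 2.23e-09). Car3 gave 310.0, 1098 and 2188 against 29290.4 and 27555 (28.6-fold lower), and the mitochondrial Car5a, which feeds bicarbonate to urea and glucose synthesis, 315, 404 and 611 against 2201 and 1855 (5.38-fold lower). Amino acid and sugar transporters were likewise called in both directions, 6 of 19 higher and 7 lower. The glutamine carriers Slc1a5 and Slc38a2 were at least 2.1-fold and 3.98-fold higher, and so were both chains of the large neutral amino acid exchanger, Slc3a2 (2.86-fold) and Slc7a5 (at least 1.1-fold, with a log2 difference of 0.82 without background correction), and the lactate exporter Slc16a3 (at least 1.49-fold). Slc6a13, a GABA and taurine carrier, was 6.94-fold lower, the glucose-6-phosphate carrier Slc37a4 5.75-fold and the fructose carrier Slc2a5 4.08-fold. Slc2a2, the glucose carrier of hepatocytes, gave 7876, 8354 and 10107 in oval cells against 7169 and 7820.3 in control and was not called (log2 difference 0.19 ± 0.10, SE). Over all 111 tested genes with an Slc symbol 11 were called higher and 28 lower.

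The protein-making machinery of the cytosol and that of the mitochondrion differed in their counts. Of 54 cytosolic ribosomal protein genes 18 were called higher and 0 lower, with a median of 0.90 and a range of -0.52 to 1.67. Of 53 mitochondrial ribosomal protein genes 0 were called in either direction by limma, with a median of -0.06 and a range of -0.87 to 0.87. The count of 18 was 4 with cyclic loess. Centring on the cytosolic genes removes their rise by definition, and with it 24 of the 53 mitochondrial genes were called lower. Of 20 nucleolar and ribosome assembly genes 8 were called higher and 0 lower (median 0.64), a count of 5 without background correction or without control replicate 2. Nhp2, a subunit of the pseudouridine-guiding particles, gave 5870.3, 6575 and 7271 in oval cells against 1925 and 1952 in control (3.46-fold, adjusted p = 1.73e-08). Nop58 and Fbl, of the methylation-guiding particles, were 3.11-fold and 2.59-fold higher, and the nucleolar proteins Npm1 and Ncl 2.38-fold and 2.29-fold. With centring on ribosomal protein genes 0 nucleolar genes were called higher. The rise of Npm1 (log2 difference 1.25) was under the 2-fold limit with cyclic loess (0.97) and without control replicate 2 (0.99).

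Other growth machinery showed smaller counts. Histone and chaperone genes were called higher in 4 of 11 cases (median 0.88, and 2 cases with cyclic loess), with Hmgb2, a DNA-bending protein of dividing cells, at 2024, 2215 and 2422 in oval cells against 455 and 357 in control (6.48-fold), and the histone variants H2ax and H2az1 3.12-fold and 2.49-fold higher. H2az1 was under the limit with cyclic loess (0.98). Nuclear pore and transport genes were called higher in 3 of 17 cases (median 0.37), with Nup107 2.84-fold, Nup205 2.57-fold and the GTPase Ran 2.29-fold, which cyclic loess put under the limit (0.94). Nucleotide synthesis genes were called higher in 3 of 15 cases (median 0.40), with Aprt of purine salvage 2.5-fold and the CTP synthase Ctps1 2.28-fold. With centring on ribosomal protein genes 1 histone or chaperone gene and 0 genes of the nuclear pore and nucleotide lists were called higher. Of 27 ubiquitin pathway genes 2 were called higher and 0 lower (median 0.02), the mitotic conjugating enzymes Ube2t (at least 1.23-fold) and Ube2c (at least 2.13-fold). Of 14 aminoacyl-tRNA synthetases the valyl enzyme Vars1 was called higher (2.21-fold) and the glutamyl-prolyl enzyme Eprs1 lower (2.38-fold), with a median of -0.05, and 2 were lower with cyclic loess. The shares of both lists were under the 14.4% and 12.5% of all genes.

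**Figure D4:**
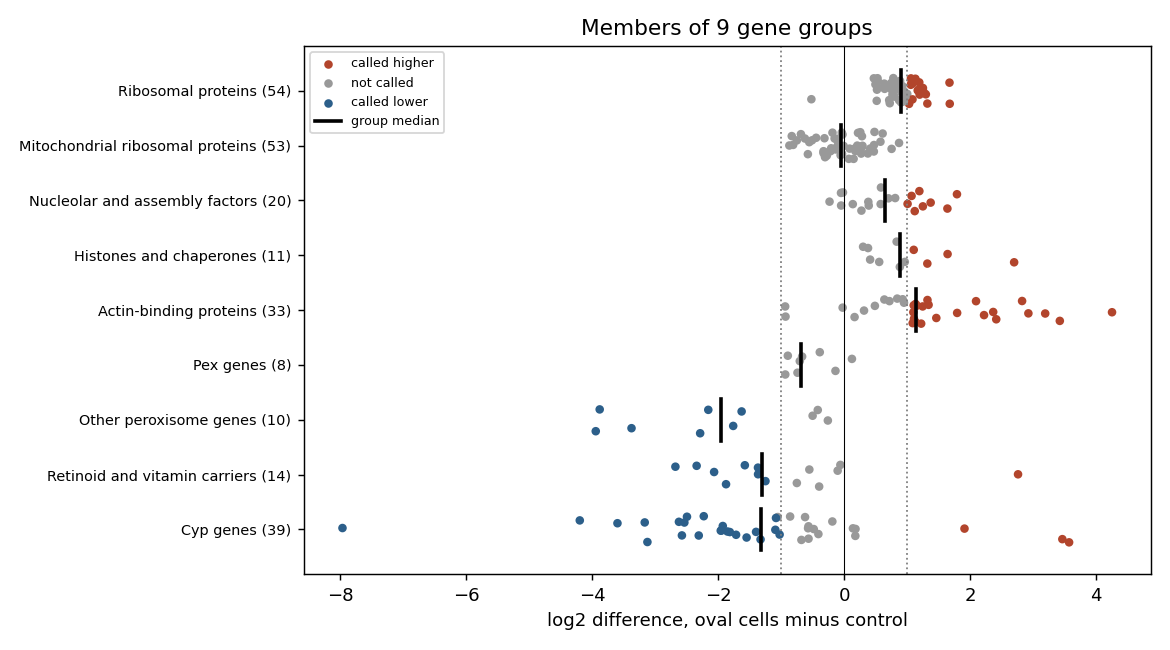
Log2 difference, oval cells minus control, of each tested member of 9 gene groups (1 point per gene, number of genes in brackets). Red points are called higher, blue points called lower, grey points not called, thick bars are group medians and dotted lines mark 2-fold. Cytosolic ribosomal proteins lie around 0.90 and mitochondrial ones around -0.06. Pex genes lie within 2-fold (median -0.69) while 7 of 10 other peroxisome genes are called lower (median -1.96). Centring on ribosomal protein genes shifts both medians, to -1.58 and -2.86, and 7 of 8 and 10 of 10 are then called lower.

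Peroxisomal genes were called lower in 7 of 18 cases and higher in 0 (median -0.82), and by adjusted p alone 15 were lower. The 8 Pex genes, which build the organelle, had a median of -0.69 and a range of -0.94 to 0.12 with 0 calls by limma, though 2 were called lower with an offset of 16 and 7 with centring on ribosomal protein genes. Of 10 others, enzymes for the most part, 7 were called lower, among them the membrane channel Pxmp2 (log2 difference -2.29). Cat, the peroxide-degrading catalase, gave 568, 1005 and 1445 in oval cells against 9718 and 9333 in control (10.4-fold lower, adjusted p = 6.11e-08), and Hao2, a hydroxyacid oxidase, 348, 644 and 881 against 8029.7 and 8464 (14.8-fold). Its relative Hao1, which makes glyoxylate, gave 1122, 1453 and 2096 against 6361 and 6361 (4.47-fold). All oval cell arrays were below control for these 3 genes, with replicate 4 the lowest of the 6 in each. In the tryptophan and NAD list 4 of 13 genes were called lower and 0 higher (median -0.83). They belong to the kynurenine branch of tryptophan breakdown, with Kynu 9.72-fold, Aadat 8.56-fold, Kmo 4.33-fold and Haao 2.27-fold lower. Heme synthesis and breakdown genes were called lower in 3 of 12 cases and higher in 0 (median -0.23).

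Retinoid and vitamin carriers were called lower in 8 of 14 cases and higher in 1 (median -1.31). The vitamin E carrier Ttpa gave 1501, 1951 and 2567 in oval cells against 13000.3 and 11589 in control (6.41-fold lower), and the retinol dehydrogenase Rdh7 354, 545 and 847 against 2496 and 2546 (5.08-fold lower). Rbp7, a cellular retinol-binding protein, rose with 510.1, 919 and 3014 against 199 and 229 (at least 4.13-fold higher, adjusted p = 0.00123), and its highest array was replicate 4. Of the selenoprotein list 3 of 16 were called higher and 3 lower (18.8% each, beside 14.4% and 12.5% of all genes). The peroxidase Gpx3 (6.4-fold), Selenom (at least 2.9-fold) and Selenow (2.74-fold) were higher, while the thyroid hormone deiodinase Dio1 (6.7-fold) and the plasma selenium carrier Selenop (at least 1.92-fold) were lower. In phospholipid and sphingolipid metabolism 4 of 22 were called higher and 4 lower (18.2% each, beside the same shares of all genes). Among them the phospholipase Pla2g12a (8.5-fold) and the scramblase Plscr1 (at least 2.55-fold) were higher. Chka (4.03-fold) and Pcyt2 (2.85-fold), early enzymes of choline and ethanolamine lipid synthesis, were lower.

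Families of genes that share a symbol stem were counted without regard to function. Of 49 families with at least 10 tested genes 5 had at least 33% of their genes called in 1 direction. Col (8 of 10) and the class I and II histocompatibility genes with RT symbols (6 of 17, with 2 lower) were those with rises, and Cyp (23 of 39, with 3 higher), Hsd (6 of 11) and Abhd (4 of 12, with 1 higher) those with falls. Of the steroid dehydrogenases, Hsd17b2, which inactivates sex steroids, gave 207, 266 and 339.9 in oval cells against 2182 and 2187 in control (10.9-fold lower), and Hsd3b5 324, 701 and 1090.2 against 4975 and 6194 (8.98-fold lower). The lipid hydrolase Abhd2 was at least 1.6-fold lower. In 9 families no gene was called by limma (with centring on ribosomal protein genes 61 of their 145 genes were called lower), namely Cox, Dnajc, Med, Mrpl, Mrps, Psmd, Snx, Timm and Usp, among them respiratory chain, Mediator, proteasome and mitochondrial import subunits. Within 1 complex, the vacuolar proton pump, Atp6v1d gave 12423, 15023 and 17105 in oval cells against 2134 and 2369 in control (6.66-fold higher, adjusted p = 7.32e-10), while 10 other tested subunits ranged from -0.54 to 0.71 on the log2 scale with 0 called by limma, or 2 lower with centring on ribosomal protein genes. No further probe of Atp6v1d was tested. Of 33 tested lysosomal and vacuolar ATPase genes 4 were called higher (12.1%) and 3 lower (9.09%), with a median of 0.36. These counts were 1 and 12 with centring on ribosomal protein genes. By their medians 3 of the 33 exceeded 300 in control alone. Among the 3 falls the lysosomal cholesterol exporter Npc1 was 3.12-fold lower. Of 15 autophagy genes 1 was called higher and 1 lower (median -0.32), or 0 and 10 with that centring.

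Signalling genes were called in both directions, as were all genes (14.4% higher and 12.5% lower). The higher shares of the Wnt list (12.5%) and of the Notch and Hedgehog list (11.1%) lay near that of all genes. Their lower shares (25% and 22.2%) rest on 2 genes each. Of 16 growth factor ligands and receptors 5 were called higher and 4 lower. The ligand Pdgfa gave 2791, 3033 and 3631 in oval cells against 623 and 744 in control (4.94-fold higher), and the receptor Fgfr3 687, 816 and 1258 against 273 and 333 (3.41-fold higher). Egfr, the receptor of EGF on hepatocytes, was 3.09-fold lower, its ligand Egf at least 2.88-fold and the growth hormone receptor Ghr 4.39-fold. In the Wnt list (8 tested, with 1 higher, or 0 without control replicate 1 or without background correction, and 2 lower) the co-receptors Lrp5 (2.56-fold) and Lrp6 (at least 1.61-fold, with a log2 difference of -0.96 without background correction) were lower. In the Notch and Hedgehog list (9 tested, 1 higher, 2 lower) the ligand Jag1 was at least 1.35-fold higher, or 0.96 on the log2 scale without background correction, and Hhip, a Hedgehog antagonist, at least 2.29-fold lower. Of 10 axon guidance genes 4 were called higher and 2 lower (2 and 1 without background correction), with the semaphorins Sema4a 4.55-fold higher and Sema4g 3.56-fold lower.

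Transcription factors of epithelium and progenitors were called higher in 4 of 20 cases and lower in 3 (median 0.55). The differentiation inhibitor Id1 gave 1048, 1420.4 and 2008 in oval cells against 213 and 248 in control (at least 4.91-fold), Klf5 of proliferating epithelium 592, 682 and 1003 against 154 and 164 (at least 2.42-fold), and Sox4 was at least 1.48-fold higher. The hepatocyte factor Cebpa gave 208, 225 and 306 in oval cells against 1095 and 868 in control (5.27-fold lower, adjusted p = 1.67e-07), Foxa3 was 2.41-fold lower, and Foxa1 at least 1.31-fold, or -0.80 on the log2 scale without background correction. Of 6 clock genes 1 was called higher, Per1 (at least 1.41-fold), and 3 lower, and the time of day of collection is not given in the sources used here. Interferon-stimulated genes were called higher in 4 of 28 cases (2 with cyclic loess or without control replicate 2), a share of 14.3% beside 14.4% of all genes. Lower calls were made for 8. That count of lower genes was 4 without background correction and 3 without control replicate 1 or without oval cells replicate 4. The antiviral membrane protein Ifitm3 was 3.85-fold higher. The GTPase Igtp gave 230.2, 459 and 671 in oval cells against 1527 and 711 in control, a log2 difference of -1.46 that was -0.87 without control replicate 1, and Irgm differed by -1.16, or -0.997 without oval cells replicate 4. Of 24 apoptosis regulators 5 were called higher (20.8%) and 3 lower (12.5%, as over all genes). Among them the effectors Bok (at least 4.66-fold) and Bak1 (4.05-fold) were higher. Bmf (at least 1.52-fold) and the lipid droplet protein Cideb (3.41-fold) were lower. Of 20 glycan-building enzymes 6 were called higher and 2 lower (1 lower without control replicate 2 or without oval cells replicate 2, 5 or 6), with B4galt6, which makes lactosylceramide, at least 3.1-fold and the sialyltransferase St3gal2 at least 1.77-fold higher.

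Many probes were bounded to a small difference. For 4089 of 6764 probes (60.5%) the 95% interval of the difference lay within 2-fold in both directions. Sdhc, a subunit of succinate dehydrogenase, gave 9228, 9501 and 9936 in oval cells against 9333 and 9541 in control, with an interval of -0.16 to 0.18 on the log2 scale. Skp1, of the SCF ubiquitin ligases, gave 10609, 11382 and 11752 against 10856 and 11557 (-0.17 to 0.18), and Hpx, the heme-binding plasma protein hemopexin, 36981, 37810.0 and 38363 against 37263 and 36981 (-0.13 to 0.18). The splicing factor Bcas2 (-0.18 to 0.18), the chromatin protein Ubn1 (-0.18 to 0.14), the Polycomb subunit Pcgf1 (-0.16 to 0.17) and the tRNA-modifying enzyme Dus3l (-0.17 to 0.16) had intervals of like width. Hpx is made by hepatocytes, and its signal was near the top of the scale in both groups.

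The oval cell arrays differed among themselves in the called genes. Of the 657 lower genes, replicate 4 was the lowest of the 6 oval cell arrays in 318 (48.4%), and replicates 3 and 1 were the highest in 271 (41.2%) and 228 (34.7%). Their median difference against the control mean was -1.73 on replicate 4, -1.33 on replicate 3 and -1.37 on replicate 1. Of the 754 higher genes, replicate 6 was the highest in 293 (38.9%) and replicates 1 and 3 the lowest in 248 (32.9%) and 219 (29%). Cyp3a2, a steroid-oxidising cytochrome P450 of male liver, gave 7539, 856, 6036, 347, 2277 and 2903 on oval cells replicates 1 to 6, against 24419 and 23774 in control (log2 difference -3.60 ± 0.96, SE). Gsta2, a glutathione transferase, gave 3149, 1221, 4226, 446, 1794 and 1543 against 9522 and 8119.9, and Cyp7a1, the rate-limiting enzyme of bile acid synthesis, 1618, 485, 2469.7, 304, 526 and 432 against 6847 and 4441. In all 3 genes replicates 1 and 3 were the highest oval cell arrays and replicate 4 the lowest.

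Some genes ran the other way on replicate 4. Sds, the serine dehydratase that feeds serine into glucose synthesis, gave 5796 on replicate 4 and 255 to 500.3 on the other 5 oval cell arrays, against 4119 and 2784 in control. Its groups overlapped through that array, and its difference of -2.80 ± 0.98 (SE, log2, adjusted p = 0.0189) was not called without either of the control arrays (-2.52 and -3.09). G6pc1 gave 5785 on replicate 4 and up to 2479 on the others, against 10668 and 7940.4 in control. Rbp7 gave 3014 and Fst 3363 on replicate 4, each the highest of its oval cell arrays. Without replicate 4, 1749 probes were called, against 1771 with it.

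**Figure D5:**
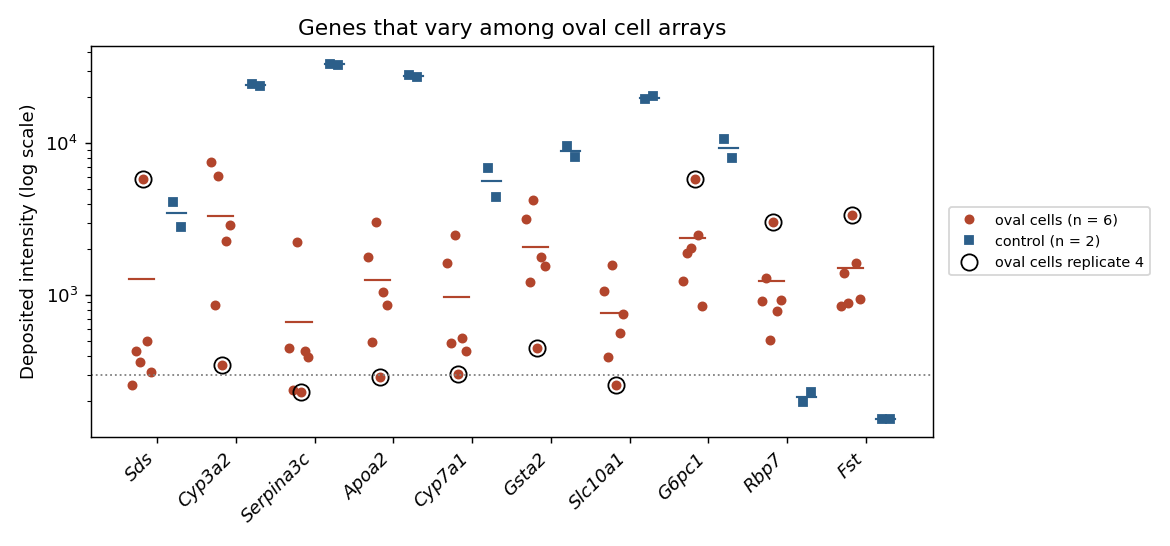
Deposited intensity (log scale) on each array for 10 genes with a wide spread among oval cell arrays. Oval cells (red circles, replicates 1 to 6 from left to right, replicate 4 ringed) stand left of control (blue squares), short lines are group means and the dotted line is 300. Replicate 4 is the lowest oval cell array for Cyp3a2, Apoa2, Cyp7a1, Gsta2 and Slc10a1 and the highest for Sds, G6pc1, Rbp7 and Fst.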

How the data were processed

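RNA of microdissected rat liver was hybridised to 13 Illumina arrays, 1 per sample. The deposited values are probe intensities, not logged. The submitters' processing notes name BeadStudio (version 3.0.19.0), and the authors applied quantile normalization, which hides any difference in total RNA or common to most genes. Every alternative below started from these deposited values, so none tests that normalization. Control and oval cell arrays shared slide 1. The deposited signal table with 26 per-sample columns matched no label and was not used here.

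Intensities were corrected with normexp (offset 50), normalized by quantiles and taken to log2. Probes with a median over 300 in oval cells or control were fitted in limma (version 3.58.1, R version 4.3.3) over all 13 arrays, with Benjamini-Hochberg adjustment over 6764 probes. A call needed an adjusted p under 0.05 and a 2-fold difference, on the offset scale. In simulated data 100% of 4-fold and 55% of 2-fold changes were called in oval cells against control (6764 probes). A planted 2-fold change lies at the limit of the call itself, so the 55% is no detection rate. Noise was drawn independently for each array, unlike arrays that share an animal. Nothing says that the arrays of a group came from separate animals, so p-values measure the spread between arrays. The number of arrays limits the precision.

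Of 22523 probes 13793 had 1 gene symbol and 0 had several, 8730 are unnamed here, and 13757 matched a RefSeq gene (GRCr8). A gene is given by its probe with the highest mean. The naming rule took the 25 largest rises and falls without overlap. It also took the called members of each list (up to 4) by smallest adjusted p, and all biliary markers. Members of families with at least 33% called in 1 direction were added. The most variable probes among oval cell arrays and those with the interval closest to 0 completed the rule. Not every gene that it selects is named here, and called members of some lists are left out. A further 38 genes, outside that rule, were chosen after their values were seen: Alb, Aqp1, Aqp11, Atp1b1, Bmf, Coro1a, Fgfr3, Foxa1, Foxa3, Fxyd3, Ghr, Gpx3, Gsn, Hao1, Hpx, Igtp, Irgm, Itgb4, Itgb6, Mmp12, Ncl, Pcyt2, Plscr1, Rbp7, Rdx, Serpine2, Skp1, Slc16a3, Slc2a2, Slc38a2, Slc3a2, Slc7a5, Sox4, St14, St3gal2, Tmprss6, Vil1, Zyx. Arrays, lists and rules were chosen with earlier results of these data known. Promoters and motifs came from RefSeq tables. Alternatives were no background correction, offset 16, other filters, no fold limit, only 8 arrays, array weights and a pooled-variance t-test on the 8 arrays. Further ones were cyclic loess, median centring, centring on ribosomal protein genes and each array left out. One gene used to choose the cells and a list of genes are not reported here.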

Additional observations from a re-analysis of the deposited data

Results flagged for a closer look

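Among 182 genes named with values, 7 had an oval cell array set apart from the other 5 on the log2 scale beyond Dixon's 95% critical value, which chance passes in about 1 of 20 groups. Of these, replicate 4 was the array apart in 3. Sds gave 5796 on it against 255 to 500.3 on the others, the plasminogen activator Plat 3359 against 1925 to 2336, and the glucose carrier Slc2a2 10107 against 7876 to 8558. Replicate 6 was apart in 3 genes. Cdh1 gave 822 on it against 572 to 619 on the others, Ube2t 439 against 344 to 369.5, and Pcgf1 584, the lowest, against 618 to 634. Replicate 3 was apart in 1 gene, with 2241 for Serpina3c against 231 to 450.3 on the others.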

How the results depend on the processing

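The count of 1771 called probes stayed within 1.5 times under all settings except no fold limit (4876, with 2485 higher and 2391 lower) and centring on ribosomal protein genes (3337, with 323 higher and 3014 lower). Leaving out each array in turn gave 1730.0 to 1838 probes, with 918 to 980.0 higher and 812 to 868 lower. The count of 4089 probes with an interval within 2-fold was 19434 with no filter, 81 with the methods' filter, which keeps probes that vary, and 2397 with that centring. Of 182 named genes 144 kept their direction and their side of the threshold in every alternative that held their probe, no called gene reversed, and of the other 38 many changed with centring on ribosomal protein genes, where 30 lost a call and 2 gained one. Of 36 lists with at least 5 tested genes, 30 kept the sign of their median, relative to that of all probes, under every setting that held their probes, and the others were the Rab, mitochondrial ribosome, growth factor, interferon, selenoprotein and ubiquitin lists. Medians of smaller lists were not followed. The methods' t-test left Cyp3a2, Igtp and Sds uncalled after adjustment. No paired analysis was possible because the labels give every array of a group the same replicate number, a different number for each group, and the replicate numbers used here follow accession order and only name the arrays. Signal over background limits the sizes given, since for 341 of the higher and 127 of the lower genes the dimmer group lay under 300 throughout.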
